A study of Mus musculus with 6 samples.

Results

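The genes of retinoic acid synthesis, binding and breakdown were examined in bulk RNA-seq of mouse testis, 9 of the 54100 genes in the count table. They were chosen by symbol alone, and all 9 were present: Rbp4 and Stra6 (retinol transport and uptake), Rdh10 and Dhrs3 (the step between retinol and retinal), Aldh1a1, Aldh1a2 and Aldh1a3 (the step from retinal to retinoic acid), Crabp1 (binding) and Cyp26b1 (breakdown). Cryosections of testis gave 6 libraries, of which 3 were wild type (WT) and 3 carried an H3t deletion, H3t being a testis histone. The labels give no age, strain, promoter, Cre driver or treatment for either group, and the deletion is not described further in the sources used here. The comparison asks how the retinoid genes differ between the testes of the 2 genotypes.

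Retinol reaches cells on the plasma carrier RBP4 and can enter through the membrane receptor STRA6. Inside, RDH10 oxidises it to retinal, DHRS3 reduces retinal back to retinol, and the ALDH1A enzymes turn retinal into retinoic acid, irreversibly. Retinoic acid binds RAR receptors paired with RXR receptors on DNA, CRABP proteins carry it in the cytosol, and CYP26 enzymes hydroxylate it for clearance. In the testis, retinoic acid drives spermatogonia to differentiate and to enter meiosis. ALDH1A1 is known from Sertoli and Leydig cells, ALDH1A2 from meiotic and later germ cells, and CYP26B1 from the peritubular myoid cells around the tubules.

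Total counts ran from 8037826 to 10702930 per library. H3f4, the symbol of H3t in the table, had 390, 571 and 356 counts in WT and 0 in each deletion library. With scaling by edgeR's trimmed mean of M-values (TMM), summed counts per 1000000 (CPM) of 15 spermatid markers spanned 22291 to 23879 among WT libraries and 11.3 to 71.8 among deletion libraries, and those of 15 spermatocyte markers 9396 to 9797 and 453 to 531. The sums of 18 Sertoli markers were 1138 to 1261 CPM and 5240.1 to 5266 CPM, those of 10 Leydig markers 559.6 to 602 and 5293 to 5809.6, and those of 9 peritubular myoid markers 297 to 330.1 and 769 to 845. Macrophage, mesenchymal and endothelial markers were higher too, at 9 of 10, 6 of 7 and 5 of 7 called. Markers of epididymis and rete stayed low, at 12.4 to 19.03 CPM and 2.98 to 15.8 CPM, with Lcn5, Lcn8 and Lcn9 at 0 in all libraries, and those of adipocytes at 6.63 to 7.005 CPM and 7.05 to 33.3 CPM. The share of mitochondrial genes in all counts went from 5.98% ± 0.430 to 22.1% ± 0.567 (SD, n = 3). All members of the Sertoli and Leydig lists rose and all members of the spermatocyte and spermatid lists fell. Of the 17038 genes tested, 84.5% passed an adjusted p of 0.05, 38.4% as higher and 46.1% as lower in the deletion, and the 2 groups did not overlap for 85.9%. Bulk tissue cannot tell fewer cells of a type from less RNA per cell. Log2 changes are therefore also given with libraries scaled to equal Sertoli markers or equal Leydig markers, which ask how a gene moved against those cells' genes. What part cell makeup or the mitochondrial share has in each result below was not tested beyond these values.

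Of the 9 genes, 8 had enough counts to test and Rbp4 did not. With TMM scaling 5 rose (Aldh1a1, Aldh1a3, Cyp26b1, Dhrs3 and Crabp1), Aldh1a2 fell, and Rdh10 and Stra6 did not pass. A call for 6 of 8 is near the share of all genes called, so the count itself says nothing particular about these genes. With equal Sertoli markers 1 was called higher and 4 lower, where 4.86% and 75.5% of all genes were. With equal Leydig markers 0 were higher and all 8 lower, where 0.423% and 90.7% were. Median-of-ratios scaling, upper-quartile scaling and no scaling factor each gave the same 5 and 1 called, where 35.4%, 47.6% and 49.2% of all genes were higher and 48.3%, 38.8% and 37.7% lower. The median log2 change was 1.65 over the 8 and -0.19 over all genes tested with TMM.

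**Figure D1:**
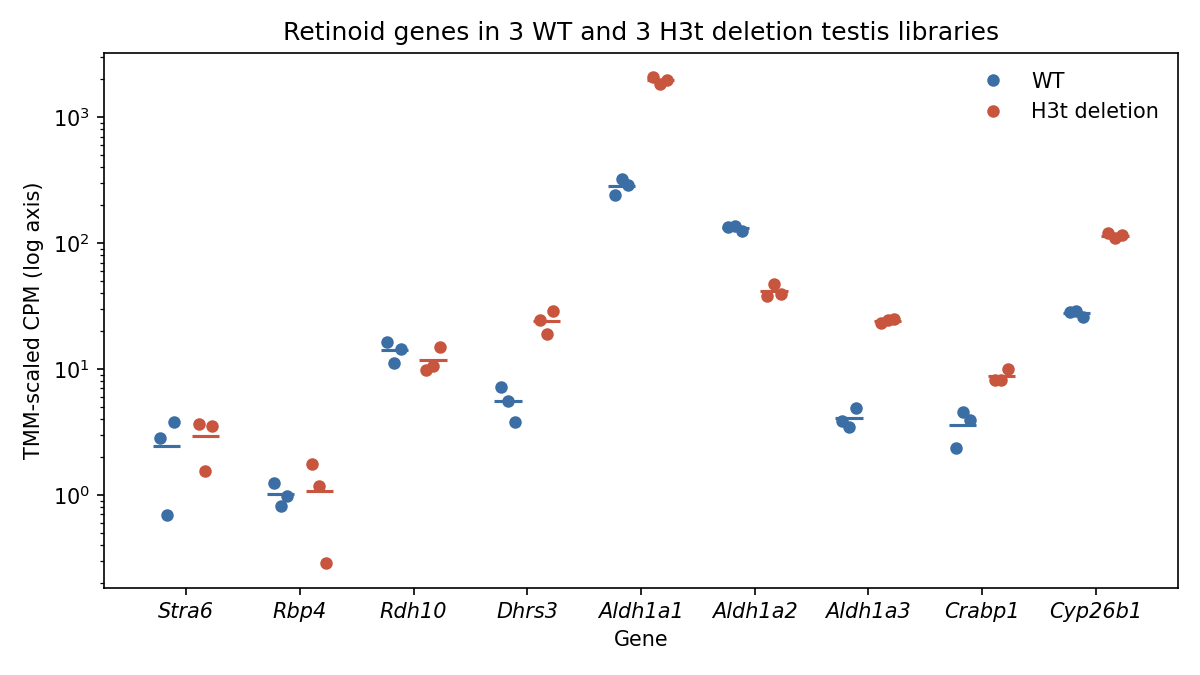
TMM-scaled CPM (log axis) of the 9 genes, with 1 point per library and a bar at each group's mean. Aldh1a1 runs from 239.9 to 323 CPM in WT and from 1835 to 2069.9 CPM in the deletion, Aldh1a2 moves the other way, and the points of Stra6, Rbp4 and Rdh10 overlap between groups.

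The genes for retinol delivery were near the limit of detection. Rbp4 (chr19:38116629-38125281, minus strand, in build GRCm38, as for all genes below), which encodes the plasma carrier of retinol, had 8, 7 and 7 counts in the WT libraries (replicates 1 to 3) against 19, 13 and 3 in the deletion. That gives 1.02 ± 0.217 and 1.07 ± 0.738 CPM (SD, n = 3), with the deletion libraries on both sides of WT. It was below the filter on low counts. Without that filter its log2 change was 0.10 (edgeR adjusted p = 0.909). Stra6 (chr9:58063788-58153996, plus strand), the RBP4 receptor, stood at 2.80, 0.698 and 3.81 CPM in WT and 3.68, 1.54 and 3.53 CPM in the deletion. Its groups overlapped, and the log2 change of 0.28 had a 95% interval of -0.87 to 1.44 (edgeR adjusted p = 0.629). Without WT replicate 2, the lowest library, the change was -0.20. At this depth a change of Stra6 was not detectable with TMM. With equal Sertoli and equal Leydig markers Stra6 fell by 1.80 and 2.89 on the log2 scale (edgeR adjusted p = 0.00796 and 0.000122). The median log2 changes of all genes on these scalings were -2.27 and -3.37. Against the mean log2 CPM of the Sertoli markers in the same library, Stra6 went from -3.38 ± 1.20 to -5.10 ± 0.69 (SD, n = 3). Its libraries overlapped there (exact two-sided permutation p = 0.3). They did not overlap against the Leydig markers (exact two-sided permutation p = 0.1).

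The enzymes that pass retinol to retinal and back moved apart. Rdh10 (chr1:16105774-16133734, plus strand), which makes retinal, had 16.5, 11.05 and 14.5 CPM in WT and 9.86, 10.6 and 15.0 CPM in the deletion. The groups overlapped, and the log2 change was -0.24 with a 95% interval of -0.72 to 0.24 (edgeR adjusted p = 0.323). It was 0.30 with upper-quartile scaling and 0.40 with no scaling factor. With equal Sertoli and equal Leydig markers Rdh10 was called lower, at -2.34 and -3.43 (edgeR adjusted p = 9.85e-08 and 1.50e-10). Dhrs3 (chr4:144892827-144928209, plus strand), which turns retinal back to retinol, had 7.16, 5.58 and 3.81 CPM in WT and 24.6, 18.9 and 29.1 CPM in the deletion. Every deletion library was above every WT library. Dhrs3 rose 4.40-fold with TMM, a log2 change of 2.14 (SE 0.24, edgeR adjusted p = 7.15e-07), was at 0.05 with equal Sertoli markers (adjusted p = 0.874) and fell by 1.06 with equal Leydig markers (adjusted p = 0.00113).

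Their ratio within a library needs no scaling factor. The log2 ratio of Rdh10 to Dhrs3, in reads per kb of exon, had a mean of 0.87 ± 0.50 among WT libraries and of -1.55 ± 0.25 among deletion libraries (SD, n = 3), a difference of -2.41. Rdh10 exceeded Dhrs3 in every WT library and was under it in every deletion library. The exact two-sided permutation p was 0.1, the smallest that 3 against 3 can give, and 0.1 adjusted over 9 such ratios. Exon length cancels in the difference. Against the mean log2 CPM of the Sertoli markers in the same library, Rdh10 went from -0.73 ± 0.39 to -3.10 ± 0.32 and Dhrs3 from -2.07 ± 0.50 to -2.07 ± 0.34 (SD, n = 3) (exact two-sided permutation p = 0.1 and 1). The Rdh10 libraries did not overlap on that scale and the Dhrs3 libraries did.

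The retinal dehydrogenases did not move alike. Aldh1a1 (ENSMUSG00000053279, chr19:20492715-20643465, plus strand) had 239.9, 323 and 289.8 CPM in WT and 2069.9, 1835 and 1965 CPM in the deletion. It rose 6.87-fold with TMM, a log2 change of 2.78 (SE 0.12, edgeR adjusted p = 3.01e-12). Its share of all counts went from 0.0227% ± 0.00342 to 0.243% ± 0.00989 (SD, n = 3). Ranked by counts among all genes, it stood between place 785 and place 1109 in WT and at place 11 in each of the 3 deletion libraries. With equal Sertoli markers Aldh1a1 was still higher, by 0.70 (edgeR adjusted p = 5.68e-05), and it was the only one of the 8 tested genes called higher on that scale. With equal Leydig markers it fell by 0.41 (adjusted p = 0.00464).

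Aldh1a2 (ENSMUSG00000013584, chr9:71215789-71296243, plus strand), the form known from germ cells, had 133, 137 and 125 CPM in WT and 38.04, 47.4 and 39.5 CPM in the deletion. The groups were far apart, and Aldh1a2 fell 3.16-fold with TMM, a log2 change of -1.66 (SE 0.11, edgeR adjusted p = 7.11e-10). It was called lower with every scaling tried, from -1.02 with no scaling factor to -4.85 with equal Leydig markers. The fall was smaller than that of the markers of the later germ cells. Against the mean of the spermatocyte markers Aldh1a2 gained 3.04 on the log2 scale, from -0.91 ± 0.16 to 2.13 ± 0.35, and against the spermatid markers it gained 7.21 (SD, n = 3, exact two-sided permutation p = 0.1 each, 0.117 adjusted over 48 such differences). Against the spermatogonial markers Aldh1a2 lost 2.05, from 3.35 ± 0.15 to 1.30 ± 0.19 (SD, n = 3, exact two-sided permutation p = 0.1). The 15 spermatid markers summed to 11.3 to 71.8 CPM in the deletion, so the gain against them rests on low marker values there. From 413 to 524 counts of Aldh1a2 per library remained in the deletion, and bulk tissue does not tell which cells hold them.

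Aldh1a3 (chr7:66390890-66427517, minus strand), the rarest of the 3 forms, had 3.89, 3.49 and 4.93 CPM in WT and 23.0, 24.6 and 24.7 CPM in the deletion. Every deletion library was far above every WT library. Aldh1a3 rose 5.88-fold with TMM, a log2 change of 2.56 (SE 0.21, edgeR adjusted p = 1.16e-08), was at 0.47 with equal Sertoli markers (adjusted p = 0.0748) and fell by 0.63 with equal Leydig markers (adjusted p = 0.0202).

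The promoters of the 2 abundant forms are shown since these genes moved in opposite directions with TMM. With equal Leydig markers both were called lower. Each is the 250 bases before the RefSeq start, 5′ to 3′ on the gene's strand, in build GRCm38.p6, at chr19:20601718-20601967 for Aldh1a1 and chr9:71215539-71215788 for Aldh1a2. Capitals mark an octamer, ATGCAAAT, and a CCAAT box, which were searched on both strands after the sequences had been seen.
Aldh1a1: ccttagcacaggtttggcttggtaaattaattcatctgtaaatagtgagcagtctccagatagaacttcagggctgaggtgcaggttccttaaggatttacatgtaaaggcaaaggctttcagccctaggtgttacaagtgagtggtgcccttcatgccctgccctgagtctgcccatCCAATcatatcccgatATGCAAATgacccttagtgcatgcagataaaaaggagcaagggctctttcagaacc
Aldh1a2: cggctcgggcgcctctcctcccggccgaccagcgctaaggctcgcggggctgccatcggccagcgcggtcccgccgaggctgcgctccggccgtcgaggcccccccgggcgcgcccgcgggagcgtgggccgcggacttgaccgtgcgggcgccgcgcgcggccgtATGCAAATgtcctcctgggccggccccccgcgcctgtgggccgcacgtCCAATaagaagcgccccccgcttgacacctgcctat
Both windows hold 1 octamer, which 1.6% of 32851 such windows hold, and 1 CCAAT box, which 33.8% hold. The octamer lies before the CCAAT box in Aldh1a2, at 84 to 77 bases before the start, and after it in Aldh1a1, at 56 to 49 bases. RefSeq gives Aldh1a1 2 such windows. The one shown lies inside the gene's annotated span, and the other, near the upstream end, is not shown. The longer promoter entry from which the shown window was cut holds 1 of the gene's 6 annotated transcript starts. Which start the reads came from was not tested. The windows printed differ in base makeup, with 46.4% G and C in Aldh1a1 and 77.6% in Aldh1a2. A match of letters is a description and shows no binding.

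Within each library the make-up of the Aldh1a transcripts went from mixed to nearly all Aldh1a1. Per kb of exon, the Aldh1a1 share of the Aldh1a reads went from 49.2% ± 3.74 to 94.3% ± 0.855, and that of Aldh1a2 from 50.01% ± 3.72 to 4.40% ± 0.760 (SD, n = 3). Aldh1a3 made up 0.768% ± 0.167 and 1.25% ± 0.106. All 3 shares separated the groups, with an exact two-sided permutation p of 0.1 for each. The Aldh1a3 groups overlapped when longest transcripts or raw counts were used instead. The levels rest on the length used. The exons of all annotated Aldh1a1 transcripts cover 4937 bases, whereas its longest transcript has 2358 bases. With the longest transcript of each gene the Aldh1a1 share was 66.8% ± 3.36 in WT and 97.0% ± 0.450 in the deletion, and that of Aldh1a2 32.5% ± 3.32 and 2.16% ± 0.384. The gain of Aldh1a1 over Aldh1a2, 4.46 on the log2 scale, does not depend on length.

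**Figure D2:**
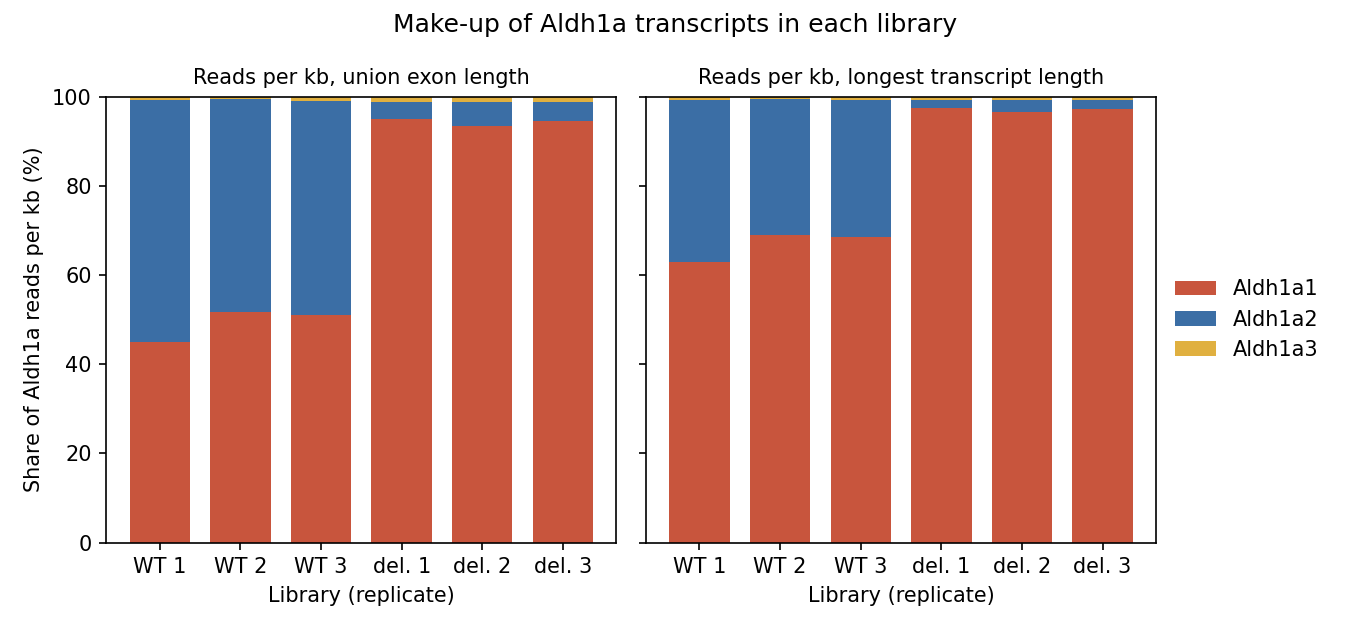
Share (%) of Aldh1a1, Aldh1a2 and Aldh1a3 in their summed reads per kb, in each of the 3 WT and 3 deletion (del.) libraries, with union exon length on the left and longest transcript length on the right. Aldh1a1 fills 93.4% or more of every deletion bar on the left, while Aldh1a2 holds 47.7% to 54.3% of the WT bars there.

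Crabp1 (chr9:54764748-54773110, plus strand), a cytosolic carrier of retinoic acid that is known from spermatogonia, had 2.33, 4.53 and 3.95 CPM in WT and 8.11, 8.14 and 9.91 CPM in the deletion. The groups did not overlap, at 15 to 39 counts in WT and 88 to 104 in the deletion. Crabp1 rose 2.38-fold with TMM, a log2 change of 1.25 (SE 0.30, edgeR adjusted p = 0.00118), but fell by 0.82 with equal Sertoli and by 1.93 with equal Leydig markers (adjusted p = 0.0234 and 2.74e-05). Against the mean of the spermatogonial markers in the same library it went from -1.81 ± 0.40 to -0.92 ± 0.09, a gain of 0.88 (SD, n = 3, exact two-sided permutation p = 0.1). Of the 10 spermatogonial markers tested, 6 rose and 2 fell with TMM, where 38.4% of all genes were higher and 46.1% lower. The summed CPM of the 12 listed ran from 489 to 561 across WT libraries and from 273 to 314 across deletion libraries. Nanos2, a marker of undifferentiated spermatogonia, was at 0 throughout.

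Cyp26b1 (ENSMUSG00000063415, chr6:84571414-84593908, minus strand), which breaks down retinoic acid, had 28.5, 28.7 and 25.9 CPM in WT and 119, 109 and 116 CPM in the deletion. Every deletion library was above every WT library. Cyp26b1 rose 4.13-fold with TMM, a log2 change of 2.05 (SE 0.10, edgeR adjusted p = 4.19e-11), was at -0.04 with equal Sertoli markers (adjusted p = 0.779) and fell by 1.14 with equal Leydig markers (adjusted p = 2.47e-07). Against the peritubular myoid markers it went from 0.68 ± 0.03 to 1.43 ± 0.11, a gain of 0.75 (SD, n = 3, exact two-sided permutation p = 0.1), or of 0.40 with the median of those markers in place of their mean.

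Summed synthesis transcripts were set against breakdown transcripts within each library. The log2 ratio of Aldh1a reads to Cyp26b1 reads per kb of exon stood at 4.34, 4.56 and 4.57 for WT and at 4.31, 4.29 and 4.28 for the deletion, just below the WT range. The means were 4.49 ± 0.13 and 4.29 ± 0.02 (SD, n = 3, exact two-sided permutation p = 0.1). With the longest transcripts they were 4.86 ± 0.17 and 5.07 ± 0.02, so the difference of -0.20 became 0.20 and its direction rests on the length. Behind this sum the single forms moved far, with Aldh1a2 against Cyp26b1 going from 3.49 ± 0.02 to -0.23 ± 0.24 and Aldh1a1 against Cyp26b1 from 3.47 ± 0.24 to 4.21 ± 0.02. A ratio of transcripts does not measure retinoic acid.

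The order of levels shifted accordingly. In WT, Aldh1a2 and Aldh1a1 were the most abundant per kb of exon, at 58.1 ± 2.66 and 57.6 ± 8.52 CPM per kb, and their ranges overlapped. Cyp26b1, Crabp1 and Rdh10 came next at 5.18 ± 0.288, 4.496 ± 1.42 and 3.37 ± 0.664 CPM per kb, with no gap between neighbours, then Dhrs3 at 1.88 ± 0.573, and Aldh1a3, Rbp4 and Stra6 at the end, again with overlapping ranges. In the deletion Aldh1a1 led alone at 396 ± 23.9 CPM per kb. Cyp26b1 at 21.4 ± 0.988 and Aldh1a2 at 18.4 ± 2.22 overlapped in range, followed by Crabp1, Dhrs3 and Aldh1a3 at 10.9 ± 1.29, 8.26 ± 1.74 and 5.22 ± 0.202, then Rdh10 at 2.84 ± 0.665 (SD, n = 3). Per kb of longest transcript Aldh1a1 led in WT too, at 121 ± 17.8 against 58.1 ± 2.66 for Aldh1a2, and every WT library of the former was above every one of the latter. With that length Cyp26b1 in the deletion, at 24.2 to 26.5, lay wholly above Aldh1a2, at 16.8 to 20.9. Crabp1, at 10.1 to 12.4, then overlapped Dhrs3, at 8.09 to 12.4.

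**Figure D3:**
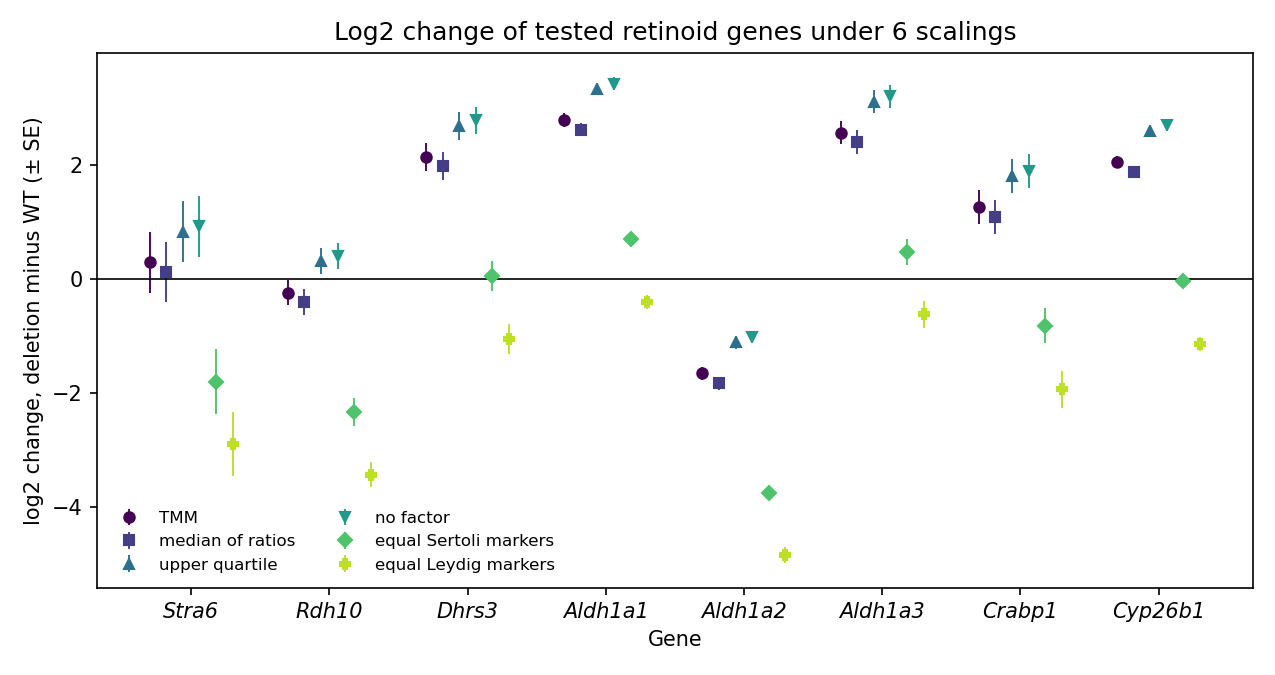
Log2 change (deletion minus WT, with standard error) of the 8 tested genes under 6 scalings of the libraries. Aldh1a2 lies under 0 with all 6, Aldh1a1 lies above 0 with all but equal Leydig markers, and Rdh10 crosses 0 between TMM (-0.24) and no scaling factor (0.40). With equal Sertoli and equal Leydig markers Rdh10 lies at -2.34 and -3.43.

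Other genes of the pathway were read from lists of 59 symbols, of which 37 were tested. With TMM, 21 rose, 9 fell and 7 did not pass, where 38.4% of all genes were higher and 46.1% lower, and the median log2 change was 0.98 beside -0.19 for all genes. With equal Sertoli markers 10 were higher and 23 lower, where 4.86% and 75.5% of all genes were. With equal Leydig markers the counts were 0 and 30, where 0.423% and 90.7% of all genes were. In the lists below, the number called is read against the 84.5% of all genes called with TMM. Among the genes of retinol uptake and storage, Lrat, which esterifies retinol for storage, had 70, 74 and 76 counts in WT and 5, 0 and 4 in the deletion, and its log2 change was -5.11 (SE 0.52, edgeR adjusted p = 1.95e-07). Dgat1, which can also esterify retinol, fell by 2.42 on the log2 scale, and Lrp2 was at -0.57 and not called.

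A further list held genes that interconvert retinol and retinal, with others of retinoid metabolism such as Bco1 and Retsat. Of its 22 genes 11 were tested, 5 rose and 4 fell with TMM, beside 84.5% of all genes called. Rdh11, a retinal reductase, fell from 272 ± 14.7 to 19.9 ± 2.15 CPM (SD, n = 3, log2 change -3.77, edgeR adjusted p = 3.73e-14). Bco1, which cleaves beta-carotene to retinal, had 384, 531 and 403 counts in WT and 2, 8 and 6 in the deletion, a log2 change of -6.87 (SE 0.25). Dhrs4 fell by 1.89. Dhrs7, Retsat and Adh5 were called higher, at 2.75, 2.48 and 2.66, though Retsat shares 14.1% of its 50-mers with Gm45053 on the other strand. With equal Leydig markers these 3 were called lower, at -0.43, -0.70 and -0.52. Values of these 3 and of Aldh1a7 with equal Sertoli markers are not given here. On that scaling 10 of the 37 tested genes of the lists were called higher. Aldh1a7, a close relative of Aldh1a1, rose by 2.87 with TMM (-0.32 and not called with equal Leydig markers), and 7.49% of its 50-mers are shared with Aldh1a1, against 3.06% the other way. Aldh8a1, a further dehydrogenase, was called lower, with 32, 14 and 12 counts in WT against 2, 0 and 0 in the deletion, and Fabp5, a carrier that can take retinoic acid to PPAR receptors, rose by 2.74 with TMM (0.68 and not called with equal Sertoli markers). Of the other hydroxylases, Cyp26a1 had 15, 12 and 15 counts in WT and 27, 12 and 28 in the deletion (log2 change 0.11, edgeR adjusted p = 0.841), and Cyp26c1 had 0 in all 6 libraries, which allows up to 0.136 CPM in WT and 0.0926 CPM in the deletion when 3 counts over a group are taken as the limit. Crabp2, the other CRABP, had between 0 and 3 counts per library.

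**Figure D4:**
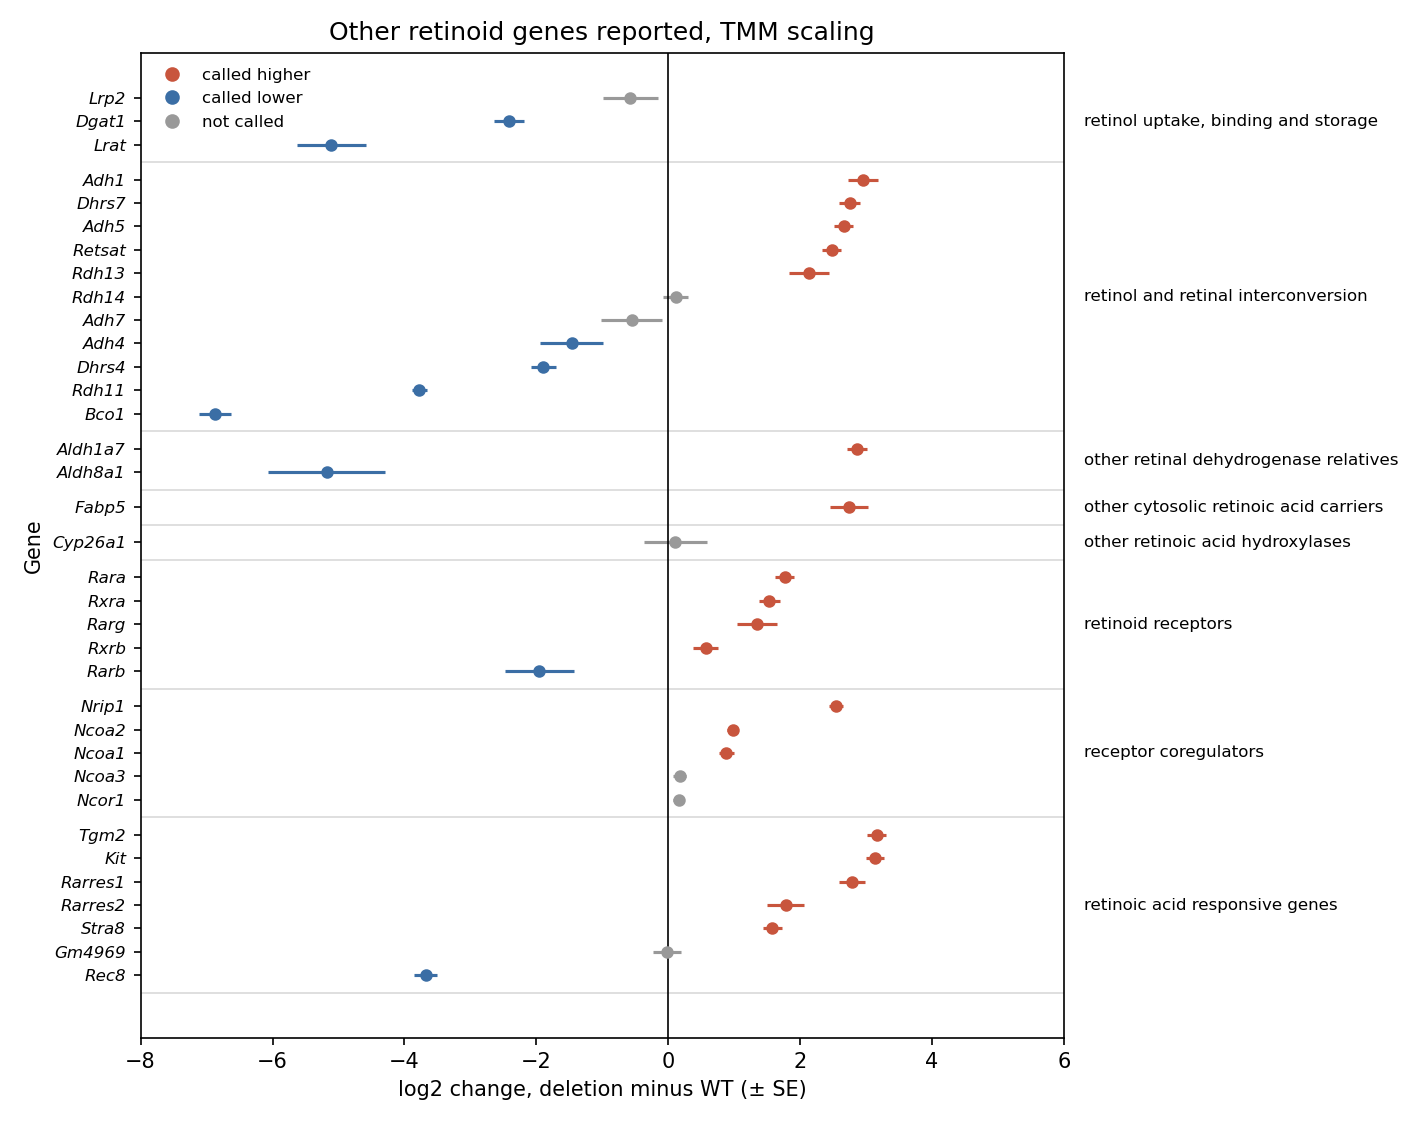
Log2 change (deletion minus WT, with standard error, TMM scaling) of tested genes of the other retinoid lists whose results are reported, 1 point per gene, grouped by list and coloured by call. Bco1 (-6.87) and Lrat (-5.11) lie far to the left, and 4 of the 5 tested receptors lie to the right of 0 on this scaling.

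Of 5 nuclear receptors tested, 4 rose with TMM and 1 fell, where 38.4% of all genes were higher and 46.1% lower. Rara, the receptor through which Sertoli cells and spermatogonia are known to respond, went from 23.0 ± 5.32 to 78.9 ± 3.45 CPM (SD, n = 3, log2 change 1.77, edgeR adjusted p = 1.47e-08), and was at -0.31 with equal Sertoli markers (adjusted p = 0.0640) and at -1.42 with equal Leydig markers. Rarg, the receptor of differentiating spermatogonia, rose by 1.35 with TMM, and Rxra and Rxrb by 1.53 and 0.57. With equal Sertoli markers all 3 turned to lower, at -0.75, -0.57 and -1.52 (edgeR adjusted p = 0.0480, 0.0107 and 2.41e-06). Rxrb also lost its call with median-of-ratios scaling, at 0.39 (edgeR adjusted p = 0.0654). Rarb had 15, 13 and 12 counts in WT and 6, 5 and 4 in the deletion, with no overlap, and a log2 change of -1.95 (SE 0.52, edgeR adjusted p = 0.00259). Of its 50-mers 34.1% are shared with other genes, mostly with Top2b on the other strand, so its few counts are uncertain. Rxrg was below the filter, with 9, 6 and 8 counts in WT and 0, 2 and 0 in the deletion.

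Rarb and Cyp26a1 are textbook targets of retinoic acid, and their promoters are shown since they were the only ones among the members and the other listed genes with a DR5 element, a direct repeat of the receptor's core motif with a spacer of 5 bases. The windows are again the 250 bases before the RefSeq start in GRCm38.p6, at chr14:16575477-16575726 on the minus strand for Rarb and chr19:37697558-37697807 on the plus strand for Cyp26a1. Capitals mark the DR5, which was searched on both strands.
Rarb: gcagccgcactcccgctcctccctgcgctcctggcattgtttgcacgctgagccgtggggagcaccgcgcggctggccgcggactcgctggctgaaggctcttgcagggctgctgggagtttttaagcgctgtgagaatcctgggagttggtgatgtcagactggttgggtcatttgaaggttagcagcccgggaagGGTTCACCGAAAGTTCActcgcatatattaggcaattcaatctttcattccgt
Cyp26a1: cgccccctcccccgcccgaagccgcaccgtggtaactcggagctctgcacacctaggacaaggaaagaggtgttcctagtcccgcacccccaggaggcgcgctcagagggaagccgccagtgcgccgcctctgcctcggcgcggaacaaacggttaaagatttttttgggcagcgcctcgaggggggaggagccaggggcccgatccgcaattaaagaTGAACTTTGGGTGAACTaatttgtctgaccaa
The element lies 53 to 37 bases before the start in Rarb and 32 to 16 bases before it, on the other strand, in Cyp26a1. Of the 32851 windows 29, or 0.0883%, hold one. Direct repeats with a spacer of 1 or 2 bases were searched too. Among the windows found for members and listed genes, only Bco1 held one, with a spacer of 1, which 0.164% of all windows hold. Windows were found for 7 of the 9 members, not for Aldh1a3 and Rdh10, and 0 of their 14 windows hold a DR5. Of the pair, Rarb fell and Cyp26a1 did not pass the test. No match says only that these letters are not in the window.

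Of the genes known to respond to retinoic acid, 7 were tested. Among these 5 rose and 1 fell with TMM, beside 84.5% of all genes called. Stra8, which retinoic acid induces as germ cells enter meiosis, had 13.7, 17.3 and 15.2 CPM in WT and 43.3, 46.6 and 49.1 CPM in the deletion. Its log2 change of 1.58 with TMM became -0.50 with equal Sertoli markers (edgeR adjusted p = 0.00728) and -1.61 with equal Leydig markers. Gm4969, the symbol in the table for Meiosin, the partner of STRA8, had 9.18, 11.6 and 11.8 CPM in WT and 11.7, 11.8 and 8.87 CPM in the deletion, and its log2 change was -0.02 (SE 0.22, edgeR adjusted p = 0.939), but 0.52 and called higher with upper-quartile scaling and -2.10 and called lower with equal Sertoli markers. Rec8, a meiotic cohesin that retinoic acid also induces, fell from 93.3 ± 9.48 to 7.27 ± 2.09 CPM (SD, n = 3, log2 change -3.68). Kit, the receptor of differentiating spermatogonia and Leydig cells, had a log2 change of 3.13 with TMM. Tgm2, a transglutaminase, stood at 3.16, although other genes share 18.7% of its 50-mers, and Rarres1 stood at 2.79. With equal Leydig markers these 3 were at -0.06, -0.03 and -0.40 and not called. Their values with equal Sertoli markers, where 10 of the 37 tested genes of the lists were called higher, are not given here.

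The genes whose profile over the 6 libraries was most like that of Aldh1a1, among 9487 compared, were Hs6st1, Lamb2 and Psen2, with root mean square differences of 0.0317, 0.0417 and 0.0545 in centred log2 CPM. For Aldh1a2 they were Kpna6, Dus1l and Cnppd1, at 0.0456, 0.0501 and 0.0571. Both sets of profiles are set mainly by the difference between the groups, with log2 changes of 2.82 to 2.83 for the former and -1.72 to -1.66 for the latter.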

How the data were processed

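Libraries were made from RNA of testis cryosections (SMART-Seq Stranded), per the labels' protocols. The authors deposited raw counts per gene, made with Trim Galore, HISAT2 on GRCm38 and featureCounts, per the submitters' processing notes. Tool versions, annotation release and strandedness of counting: not given in the sources used here. Reads of genes that overlap on opposite strands may therefore be mixed. Every one of the 54100 genes had a name, and 0 value columns were left unused. All 54100 identifiers were found in GENCODE M21 (GRCm38), which gave 1-based coordinates, exon lengths and transcripts for counting 50-mers shared between genes. Promoter sequences are RefSeq's (GRCm38.p6).

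Replicates were numbered in accession order within genotype. Titles carry a mouse number but nothing further says the libraries are separate animals. If they are not, p-values reflect only library-to-library spread, which may be technical. Within groups no pair agreed within sampling noise (chi-square per degree of freedom 4.69 to 7.29).

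Counts were tested in R 4.3.3 with edgeR 4.0.16: filterByExpr (17038 genes left), TMM factors (0.794 to 0.806 in WT, 1.21 to 1.27 in the deletion), the quasi-likelihood test, and Benjamini-Hochberg adjustment over all tested genes at 0.05. Adjusted p-values of log2 changes are from edgeR, and those of ratios within libraries are permutation p-values adjusted over their family. Log2 changes are deletion minus WT. SE is the log2 change divided by the square root of F. Log2 CPM values used a prior count of 2. One count was worth 0.0904 to 0.156 CPM, and limits from counts cover counting error only. For single values the exact permutation test (two-sided, scipy 1.17.1) was used. Alternatives were 5 other scalings, no filter, DESeq2 1.42.0, limma voom (limma 3.58.1), a test against 1.5-fold, a false discovery rate of 0.01, other lengths, and each library left out. The procedure was run on simulated data with 50 genes changed at each fold size. It recovered 34% of them at 1.5-fold, 86% at 2-fold and 98% at 4-fold, with 3 false calls. Most genes were unchanged there, unlike in these data, so that run does not test the scaling.

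The members, lists and tests were chosen with earlier results of these data known. Genes named are the 9 members, H3f4, the fixed retinoid lists (values for receptors, Stra8, Lrat, Crabp2, Cyp26a1 and up to 3 called genes per list with the highest mean CPM), and the 3 genes most like Aldh1a1 and Aldh1a2 among those with a mean of at least 10 CPM. Values of other listed genes, such as Bco1, Dhrs4, Lrp2, Nrip1, Gm4969, Rarres1 and the Adh genes, and the octamer and CCAAT box, were chosen after they were seen. Results of some listed genes are not reported here.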

Additional observations from a re-analysis of the deposited data

How the results depend on the processing

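The calls of all 8 tested members held with median-of-ratios, upper-quartile and no scaling, without a filter, with DESeq2, limma voom, a test against 1.5-fold, a false discovery rate of 0.01 and without each library in turn (5 higher, 1 lower each time). They did not hold when libraries were scaled to a cell type's markers, where most of the transcriptome shifts, the median log2 change of all genes being -2.27 with equal Sertoli and -3.37 with equal Leydig markers. With equal Sertoli markers 1 member was higher and 4 lower, and with equal Leydig markers 0 and 8. For the other retinoid genes these scalings gave 10 higher and 23 lower, and 0 higher and 30 lower, against 20 to 21 higher and 8 to 9 lower with a library left out. Upper-quartile scaling and no scaling factor each gave 25 higher and 8 lower for them. Log2 changes that turned sign with equal Leydig markers were -0.41 for Aldh1a1, -0.63 for Aldh1a3, -1.14 for Cyp26b1, -1.93 for Crabp1, -2.89 for Stra6 and -1.06 for Dhrs3. With equal Sertoli markers those of Cyp26b1, Crabp1 and Stra6 turned, to -0.041, -0.82 and -1.80. Rdh10 turned to 0.30 with upper-quartile and 0.40 with no scaling, and Stra6 ranged from -0.20 to 0.75 with a library left out (without WT replicates 2 and 3).

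The gain in the Aldh1a1 share, 45.1 percentage points, was 30.2 with longest transcripts and 29.2 with raw counts, the loss in the Aldh1a2 share, -45.6, was -30.3 and -29.5, and the gain of Aldh1a3, 0.479, was 0.152 and 0.209, with overlapping groups under both. These follow from the length each gene is divided by. Leaving out a library gave 43.0 to 46.4, -46.8 to -43.5 and 0.393 to 0.559. The change in the synthesis to breakdown ratio, -0.20, was 0.20 with longest transcripts and 0.22 with raw counts, and -0.27 to -0.16 with a library left out. That of Rdh10 to Dhrs3 stayed between -2.61 and -2.13.

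Against the Sertoli markers Dhrs3, at -0.01, ranged from -0.25 to 0.25 with a library left out, and was at 0.18 without deletion replicate 2. Against the myoid markers Crabp1, at -0.02, was at 0.0027 with a prior count of 0.5 and ranged from -0.32 to 0.13 with a library left out. No paired analysis was possible because the labels give no replicate number or batch that links WT and deletion samples. Depth limits Rbp4, Stra6, Rarb, Rxrg, Cyp26a1, Cyp26c1, Crabp2, Lrp2, Aldh8a1, Adh4 and Adh7, which had under 50 counts in every library.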

Other observations

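The coregulators that retinoid receptors share with other nuclear receptors were a further list, and values are with TMM scaling. Nrip1, a corepressor that is itself induced by retinoic acid in some cells, went from 22.0 ± 1.40 to 129 ± 8.10 CPM (SD, n = 3, log2 change 2.55). The coactivators Ncoa1 and Ncoa2 rose by 0.88 and 0.98, while Ncor1 and Ncoa3 were at 0.16 and 0.17 and did not pass (edgeR adjusted p = 0.0812 and 0.114). With upper-quartile scaling the latter pair were called higher, at 0.70 and 0.72, and with equal Sertoli markers all 4 of these genes were called lower, while Nrip1 was higher at 0.46. Alcohol dehydrogenases, which can oxidise retinol, also differed among themselves, with Adh1 and Adh5 higher by 2.96 and 2.66, Adh4 lower by 1.46 and Adh7 at -0.55 and not called with TMM. The call of Adh4 was lost with upper-quartile scaling, at -0.93 (edgeR adjusted p = 0.0767), and with no scaling factor, at -0.83 (adjusted p = 0.110), and with equal Leydig markers Adh1 was at -0.21 and not called and Adh5 was lower at -0.52. Values of Adh1 and Adh5 with equal Sertoli markers are not given here.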
